A study of Mus musculus with 4 samples.

Results

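The 8 ephrin ligand genes of the mouse, *Efna1* to *Efna5* and *Efnb1* to *Efnb3*, were followed through the cell classes of the embryonic neocortex in single-nucleus RNA sequencing (snRNA-seq) libraries. They were taken by gene name from the 56884 genes counted, and all 8 had transcripts. Their levels were compared between cell classes, between related states within a class, and between *Dnmt1* KO and control libraries.

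Ephrins are membrane-bound ligands of the Eph receptor tyrosine kinases, so that signalling needs contact between cells. The A-type ephrins are held in the membrane by a lipid (GPI) anchor and bind mainly EphA receptors, while the B-type ephrins span the membrane, bind mainly EphB receptors and EphA4, and can signal back into the cell that carries them. In the developing cortex the system is known for guiding axons and migrating neurons, for adhesion between neural progenitors, and, in vessels, for separating arterial from venous endothelium.

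Medial neocortex was dissected at embryonic stage E16.5 from mice of 2 genotypes, with 2 libraries each. Controls carried *Sst-Cre* and the tdTomato reporter, and *Dnmt1* KO mice carried in addition *Dnmt1* alleles flanked by loxP sites. Both genotypes therefore express Cre under the somatostatin (*Sst*) gene, which confines deletion of *Dnmt1* (DNA methyltransferase 1) to postmitotic *Sst*-expressing interneurons, so that by design the other classes kept the gene. The libraries of a genotype came from brains of separate mice, according to the study. They also differed in sex, and those of the controls in batch and depth, as given below. The p-values therefore measure the spread between animals together with that of sex, batch, depth and library preparation.

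Nuclei with 1500 to 60000 transcripts were kept, which left 5640 nuclei in *Dnmt1* KO replicate 1 and 12064 in replicate 2, and for the controls 7047 and 4905. Control replicate 2 came from batch 2, sequenced as 2 sublibraries against 8 for the others, and had a median of 21140 transcripts per nucleus, against 12274 to 12401 in the other 3. Barcodes above 60000 transcripts, which were left out, held 19.2% and 29.4% of the transcripts of the control libraries and 1.35% and 4.37% of those of the *Dnmt1* KO libraries, so this difference ran with genotype. The replicate number coincided with sex, *Xist* being at 1281 and 1157 CPM (transcripts scaled to a total of 1000000) in the replicates 1 and at 4.13 and 0.0887 in the replicates 2. No barcode name was shared between libraries. *Dnmt1* itself was at 76.1 and 46.1 CPM in *Sst*/*Gad2* nuclei of the *Dnmt1* KO libraries and at 81.2 and 66.5 in those of the controls, and was called in no population by edgeR. Cre removes a part of the gene, so this level does not check the deletion.

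Cell classes were formed by gates on marker genes, none of which is an ephrin. Radial glia (neural stem cells of the cortex), intermediate progenitor cells (IPC, their dividing daughters), upper-layer and deep-layer excitatory neurons, and interneurons of the medial (MGE) and caudal (CGE) ganglionic eminence had at least 28 nuclei in every library. Endothelial, mural (pericyte and smooth muscle) and Cajal-Retzius nuclei (reelin-secreting neurons of the surface layer) had at least 21 in every library once their gates were read before the excitatory gate, a change made after the gate sizes were seen. These 3 classes therefore keep nuclei that also passed the excitatory gate: nuclei without it were 17 of 34, 94 of 223, 23 of 70 and 15 of 39 endothelial, 12 of 39, 35 of 95, 16 of 37 and 7 of 21 mural, and 40 of 90, 57 of 148, 20 of 47 and 17 of 51 Cajal-Retzius nuclei, with the *Dnmt1* KO libraries named before the controls. The part of doublets in these classes was not tested. All names stand for nuclei that resemble these types by their markers. Among these 9 classes each marker panel had its highest mean summed level in its own class. The gates used the same markers, so this does not test the names. Levels are given as CPM, the transcripts of a gene after scaling those of the class in a library to 1000000, as mean ± SD over the 4 libraries; a sum over nuclei cannot tell fewer expressing nuclei from less RNA per nucleus.

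The ephrin genes lie on 5 autosomes and the X chromosome (GRCm39). *Efna1* (chr3:89179037-89188449), *Efna3* (chr3:89221203-89230272) and *Efna4* (chr3:89240695-89245373) follow each other on chromosome 3, *Efna2* is at chr10:80015266-80025844 and *Efna5* at chr17:62909956-63188312. Of the B-type genes, *Efnb1* is at chrX:98179680-98205454, *Efnb2* at chr8:8667226-8711249 and *Efnb3* at chr11:69444918-69451323. *Efna4*, which spans 4.68 kilobases, overlaps the antisense gene *4731419I09Rik* over 0.217 kilobases, and that gene had 2.95 to 3.48 CPM over all nuclei beside 6.81 to 9.02 CPM for *Efna4*, and *Efna3* overlaps the antisense *Gm15998* over 3.82 kilobases, at 0.239 to 0.346 CPM. Genes that overlap *Efnb2* were each below 0.43 CPM.

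Because *Dnmt1* encodes the enzyme that copies methylation of CpG dinucleotides, the CpGs of the ephrin promoters were counted in RefSeq sequences (GRCm38.p6, 250 bases before to 50 bases after a transcription start). A promoter was found for 7 of the 8 genes, 9 promoters in all, with 11 to 38 CpGs each against a median of 7 over 32851 promoters; *Efnb3* had no entry. The letters searched were CG, which read the same on both strands and cannot overlap themselves, and 94.6% of all promoters held at least 1. The promoters of *Efnb2* with 35 CpGs and *Efna5* with 38 had more than 93.05% and 95.05% of promoters, and *Efna1*, highest in endothelial nuclei, had 20 in each of its 2 promoters. One promoter is shown for each of these 3 genes, on whose levels the class comparisons turned (the first of *Efna1*), with every CpG in capitals, 5′ to 3′ on the minus strand. Methylation was not measured in these libraries.
Efnb2 promoter (chr8:8661193-8661492): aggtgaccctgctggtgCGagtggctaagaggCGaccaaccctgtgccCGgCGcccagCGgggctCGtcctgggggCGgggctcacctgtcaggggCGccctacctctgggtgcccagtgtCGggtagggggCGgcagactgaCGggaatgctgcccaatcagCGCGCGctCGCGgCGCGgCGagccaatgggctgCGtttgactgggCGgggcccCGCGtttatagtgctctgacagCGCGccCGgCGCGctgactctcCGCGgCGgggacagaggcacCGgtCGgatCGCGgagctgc
Efna5 promoter (chr17:62881268-62881567): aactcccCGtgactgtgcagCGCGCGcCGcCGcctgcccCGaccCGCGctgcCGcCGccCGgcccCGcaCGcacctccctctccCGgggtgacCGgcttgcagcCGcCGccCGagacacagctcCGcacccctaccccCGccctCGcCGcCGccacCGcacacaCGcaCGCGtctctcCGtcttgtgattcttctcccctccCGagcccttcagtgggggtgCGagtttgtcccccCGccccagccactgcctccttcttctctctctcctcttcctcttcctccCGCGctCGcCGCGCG
Efna1 promoter 1 (chr3:89280902-89281201): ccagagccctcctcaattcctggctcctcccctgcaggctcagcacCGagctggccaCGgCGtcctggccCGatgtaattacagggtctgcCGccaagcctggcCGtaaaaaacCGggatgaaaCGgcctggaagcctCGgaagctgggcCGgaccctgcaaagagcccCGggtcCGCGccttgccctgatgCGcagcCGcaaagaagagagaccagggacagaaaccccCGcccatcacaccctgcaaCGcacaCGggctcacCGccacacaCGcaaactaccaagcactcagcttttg

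Over all nuclei *Efna5* and *Efnb2* were the most abundant ephrins by exon length, at 32.0 and 31.5 CPM per kilobase of exon. *Efnb1* followed at 5.74 CPM per kilobase of exon, *Efna4* at 4.76, *Efna2* at 2.52, *Efnb3* at 2.44, *Efna3* at 2.02 and *Efna1* at 0.21. Per kilobase of the whole gene the order changed, since nuclear transcripts include introns and *Efna5* spans 278 kilobases. On that scale *Efnb2* was at 5.18 CPM per kilobase, *Efna4* at 1.67, *Efnb3* at 1.34, *Efnb1* at 0.89 and *Efna5* at 0.60.

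**Figure D1:**
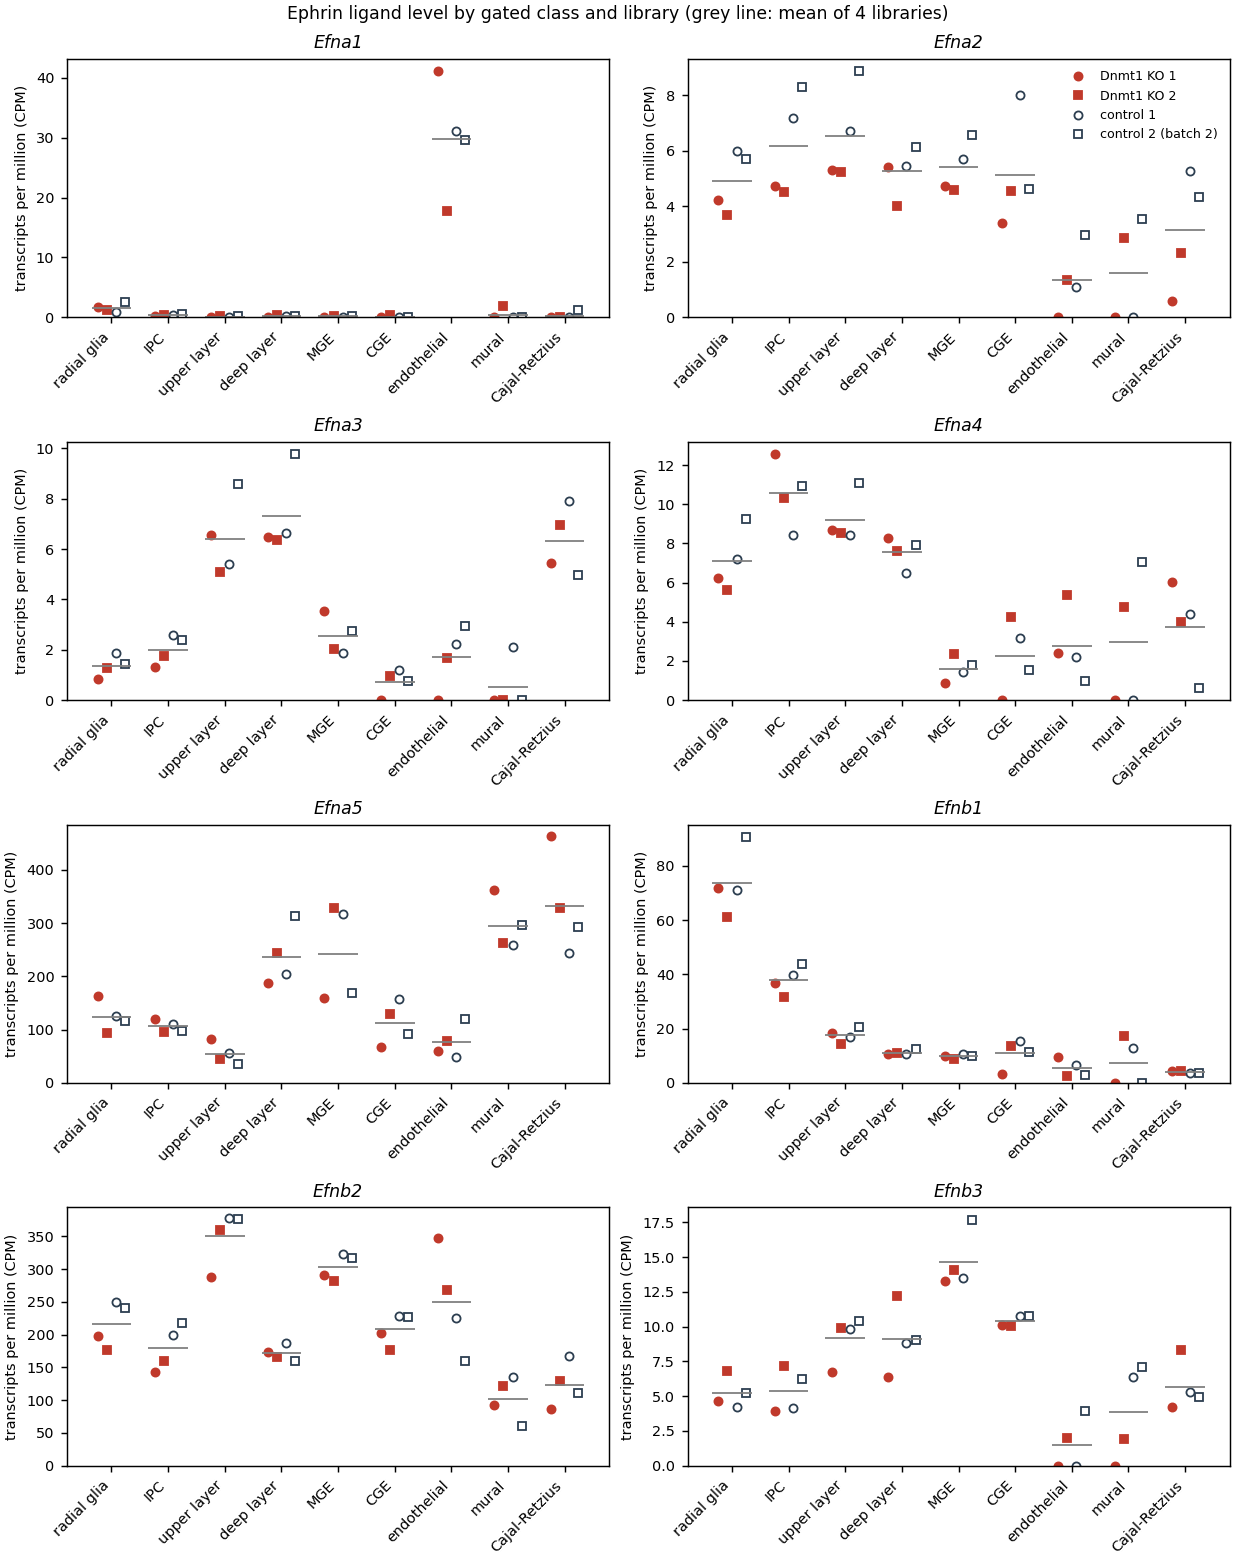
Level of each ephrin (CPM, linear axes from 0, one panel per gene) in 9 gated classes, with 1 point per library (red filled: *Dnmt1* KO; dark open: control; circles: replicate 1; squares: replicate 2) and a grey line at the mean of the 4 libraries. *Efna1* stood at 17.7 to 41.1 CPM in endothelial nuclei and below 3 elsewhere, and *Efnb1* fell in steps from radial glia to deep-layer neurons.

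*Efnb1*, a B-type ephrin known for its role in progenitor adhesion, was highest in radial glia, lower in IPC and lower again in the neurons of both layers. In radial glia it stood at 71.9 and 61.2 CPM under *Dnmt1* KO, against 71.2 and 90.6 CPM in the controls, a mean of 73.7 ± 12.3 CPM (SD, n = 4). IPC had 36.7, 31.8, 39.8 and 43.7 CPM in the same order, and upper-layer neurons 18.4, 14.5, 16.9 and 20.6 CPM. Deep-layer neurons were lower again, at 11.2 ± 0.82 CPM. The libraries of these 4 classes did not overlap from one class to the next, whereas CGE interneurons, at 11.03 ± 5.36 CPM, overlapped deep-layer neurons and MGE interneurons (9.89 ± 0.80 CPM). The lowest means were in mural (7.47 CPM), endothelial (5.49 CPM) and Cajal-Retzius nuclei (3.94 ± 0.39 CPM).

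*Efnb1* also differed by cell cycle state within both progenitor classes. Radial glia with at least 2 proliferation markers had 77.2, 63.3, 71.9 and 92.1 CPM, and those without them 58.8, 56.0, 69.5 and 84.4 CPM. IPC with proliferation markers had 41.7, 34.3, 46.7 and 52.0 CPM against 34.6, 30.4, 35.2 and 39.1 CPM. The cycling part was higher in 4 of 4 libraries in both classes, by 0.18 and 0.31 on the log2(CPM + 1) scale (two-sided exact sign-flip permutation test, p = 0.125 for each, the smallest that 4 libraries allow).

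*Efnb2*, the B-type ephrin that the study discusses as a signal from *Sst* interneurons to progenitors, had class means between 103 and 351 CPM. Upper-layer neurons had 289 and 359.7 CPM under *Dnmt1* KO, against 378 and 376 CPM in the controls, a mean of 351 ± 42.2 CPM. MGE interneurons had 291, 282, 324 and 318 CPM and endothelial nuclei 348, 269, 226 and 159.8 CPM. The upper-layer, MGE and endothelial ranges overlapped one another, so their order was not resolved. Radial glia (216 ± 35.3 CPM), CGE interneurons (209 ± 24.3), IPC (180.1 ± 34.2) and deep-layer neurons (172 ± 11.8) followed, each overlapping the next. Cajal-Retzius and mural nuclei had the lowest means, 124 ± 34.0 and 103 ± 33.6 CPM.

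From IPC to upper-layer neurons *Efnb2* and *Efnb1* ran in opposite directions. *Efnb2* was lower in IPC than in upper-layer neurons in 4 of 4 libraries, by a mean of -0.97 on the log2(CPM + 1) scale, while *Efnb1* was higher in IPC in 4 of 4 libraries, by 1.07 (exact sign-flip permutation p = 0.125 for each). *Efnb2* was also higher in upper-layer than in deep-layer neurons in every library, by 1.02 on that scale. Within IPC the cycling part had more *Efnb2* in 4 of 4 libraries, 183, 197, 213 and 252 CPM against 127, 141, 190.3 and 198 CPM, and within radial glia in 3 of 4.

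*Efnb3*, a B-type ephrin of neurons known as a midline repellent, had its highest level in MGE interneurons. They had 13.3, 14.1, 13.5 and 17.7 CPM, above CGE interneurons in every library (10.4 ± 0.39 CPM, ranges not overlapping). The CGE value of *Dnmt1* KO replicate 1 rests on 3 transcripts, so this separation is imprecise. Upper-layer and deep-layer neurons had 9.21 ± 1.67 and 9.12 ± 2.38 CPM. Cajal-Retzius nuclei, IPC and radial glia lay between 5.25 and 5.69 CPM and were not resolved from one another.

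*Efna5*, the A-type ephrin known for graded guidance of thalamic and cortical axons, separated the layer classes most. Upper-layer neurons had the lowest mean of the 9 classes, with 83.3, 44.3, 55.6 and 34.8 CPM. Deep-layer neurons had 187, 243, 205 and 313 CPM, above the upper layer in 4 of 4 libraries by 2.15 on the log2(CPM + 1) scale. Cajal-Retzius nuclei had 464, 329.5, 243 and 292 CPM, mural nuclei 363, 262, 259 and 297 CPM and MGE interneurons 159, 328, 317 and 168 CPM. These 4 higher classes overlapped one another. Deep-layer neurons, the lowest of them by mean, did not overlap radial glia (124 ± 28.6 CPM), while MGE interneurons did, their libraries being widely spread.

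The libraries low and high in *Efna5* were the same in both interneuron classes, and the cause of this spread was not tested. *Dnmt1* KO replicate 1 and control replicate 2 were low in MGE and also in CGE interneurons (67.6 and 92.2 CPM), and *Dnmt1* KO replicate 2 and control replicate 1 were high in both (130.3 and 159 CPM in CGE). MGE exceeded CGE in 4 of 4 libraries for *Efna5*, *Efnb2*, *Efnb3* and *Efna3*, by 1.10, 0.54, 0.44 and 1.06 on the log2(CPM + 1) scale (exact sign-flip permutation p = 0.125 for each). *Efna3* in CGE had only 0, 3, 3 and 1 transcripts, with the *Dnmt1* KO libraries before the controls. The 0, in 28 nuclei, does not settle the direction in that library, so the value for *Efna3* is imprecise.

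*Efna1*, an A-type ephrin known in vessels, had its highest level in endothelial nuclei. It stood there at 41.1 and 17.7 CPM under *Dnmt1* KO, against 31.1 and 29.6 CPM in the controls, from 17, 53, 28 and 30 transcripts. Radial glia were next at 1.62 ± 0.75 CPM, and the other 7 classes had means below 0.5 CPM. In MGE interneurons of *Dnmt1* KO replicate 1 no transcript was counted, which allows up to 0.884 CPM. Endothelial nuclei made up 0.603% to 1.85% of a library and held 31.6% to 44.4% of its *Efna1* transcripts, so that most lay in other nuclei. Radial glia, 8.34% to 14.8% of the nuclei, held 12.6% to 38.8%, and in *Dnmt1* KO replicate 1 they held 19 of 49 transcripts against 17 in endothelial nuclei.

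The 3 remaining A-type ephrins were low, with different orders. *Efna2* had means of 4.90 to 6.53 CPM in all 6 neural classes, highest in the upper layer, and no neighbours in its order could be separated. *Efna3* was at 7.31 ± 1.64 CPM in deep-layer and 6.41 ± 1.58 CPM in upper-layer neurons and at 6.32 ± 1.36 CPM in Cajal-Retzius nuclei, above MGE interneurons (2.54 ± 0.76 CPM) in every library. *Efna4* was highest in IPC and upper-layer neurons, at 10.6 ± 1.72 and 9.18 ± 1.28 CPM, and was at 2.24 and 1.61 CPM in CGE and MGE interneurons.

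**Figure D2:**
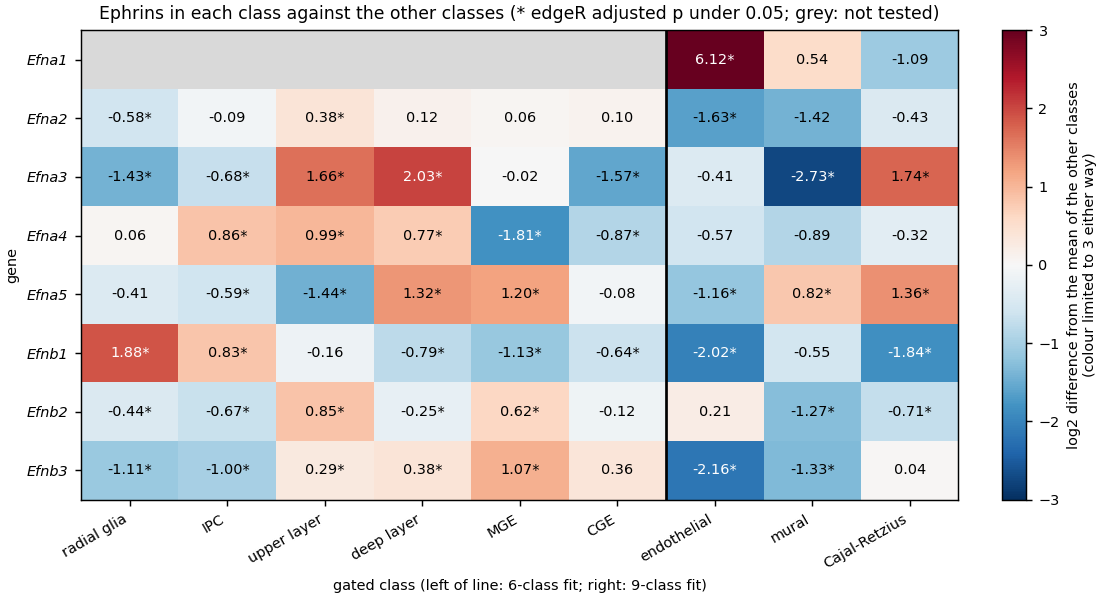
Log2 difference of each ephrin (one row per gene) in each class from the mean of the other classes, printed in each cell and coloured blue (lower) to red (higher), with * where the edgeR adjusted p was under 0.05. The first 6 columns come from a fit of 6 classes and the last 3 from a fit of 9, and grey cells were too low to test; *Efna1* in endothelial nuclei reached 6.12 and *Efnb1* in radial glia 1.88.

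Class differences come from the quasi-likelihood test of edgeR over all genes, each class against the mean of the others with the library as a block (adjusted p threshold 0.05). In the fit of 6 neural classes 7 of the 8 ephrins were tested and *Efna1* was too low, and 15287 genes entered in all. *Efnb1* rose in radial glia by 1.88 (SE 0.07, edgeR adjusted p = 3.29e-15), and 1 of 7 ephrins rose there against 37.6% of all genes. The 4 that fell in radial glia, against 34.3% of all genes, were *Efna3* (-1.43), *Efnb3* (-1.11), *Efna2* (-0.58) and *Efnb2* (-0.44).

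In IPC *Efna4* rose by 0.86 and *Efnb1* by 0.83 on the log2 scale, 2 of 7 against 27.7% of all genes. *Efnb3* (-0.999), *Efna3* (-0.68), *Efnb2* (-0.67) and *Efna5* (-0.59) fell, 4 of 7 against 23.9%. The call for *Efna5* in IPC was lost without *Dnmt1* KO replicate 2 (edgeR adjusted p = 0.112) or without control replicate 1 (0.0986), and that for *Efna3* without *Dnmt1* KO replicate 2 (0.0873) or control replicate 2 (0.0666), or with gates read from nuclei thinned to 1500 transcripts (0.319).

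With all 4 libraries, upper-layer neurons had the most ephrins called higher in this fit. *Efna3* (1.66), *Efna4* (0.99), *Efnb2* (0.85, SE 0.06, edgeR adjusted p = 2.00e-09), *Efna2* (0.38) and *Efnb3* (0.29) rose there, 5 of 7 against 22.7% of all genes, and *Efna5* alone fell, by -1.44 (SE 0.23), against 21.1%. Without control replicate 2 the calls for *Efna2* (edgeR adjusted p = 0.0560) and *Efnb3* (0.119) were lost and 3 remained. Deep-layer neurons then had the most, as they kept 4 whichever library was left out. The *Efnb3* call of the upper layer was also lost without control replicate 1 (edgeR adjusted p = 0.210). Thinned gates ended the call for *Efna2* (0.0959), and the RLE size factors that for *Efnb3* (edgeR adjusted p = 0.0501).

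In deep-layer neurons *Efna3* (2.03), *Efna5* (1.32, SE 0.19, edgeR adjusted p = 5.67e-06), *Efna4* (0.77) and *Efnb3* (0.38) rose, 4 of 7 against 30% of all genes. *Efnb1* (-0.79) and *Efnb2* (-0.25) fell, 2 of 7 against 25.6%, the latter not without control replicate 2 (edgeR adjusted p = 0.0689). In this fit both layer classes had *Efna3*, *Efna4* and *Efnb3* called higher, and they had opposite calls for *Efnb2* and *Efna5*.

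MGE interneurons had *Efna5* (1.20), *Efnb3* (1.07) and *Efnb2* (0.62) called higher, 3 of 7 against 22.2% of all genes, and *Efna4* (-1.81) and *Efnb1* (-1.13) called lower, 2 of 7 against 21.9%. In CGE interneurons 0 of 7 ephrins were called higher against 12.6% of all genes. *Efna3* (-1.57), *Efna4* (-0.87) and *Efnb1* (-0.64) were called lower there, 3 of 7 against 12.1%; without control replicate 2 the *Efna3* (edgeR adjusted p = 0.0561) and *Efna4* (0.163) calls were lost, as was *Efna3* without *Dnmt1* KO replicate 2 (0.0754) and *Efna4* without control replicate 1 (0.117). *Efna4* was also no longer called with the strict gate (edgeR adjusted p = 0.0567), the filter on mapped reads (0.129) or nuclei up to 30000 transcripts (0.0746). CGE is the smallest of these classes, with 28 nuclei in *Dnmt1* KO replicate 1. Its *Efna3* values rest on 0 and 3 transcripts under *Dnmt1* KO and 3 and 1 in the controls.

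The calls of the 6 neural classes depended on which classes made up the reference. In the fit of 9 classes, where endothelial, mural and Cajal-Retzius nuclei joined it, all 8 ephrins and 15975 genes were tested. CGE interneurons then had *Efnb3* (0.91) and *Efna2* (0.65) called higher, 2 of 8 against 14.2% of all genes, and 0 called lower against 12%, with *Efna3* at -1.26, *Efna4* at -0.53 and *Efnb1* at 0.11. In radial glia *Efnb1* (2.51) and *Efna1* (1.39, edgeR adjusted p = 0.00108) were higher, against 33.7%, and *Efna3* (-1.10), *Efna5* (-0.56) and *Efnb3* (-0.46) lower, against 26.4%, while *Efnb2* (-0.11) and *Efna2* (0.04) were not called.

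In IPC of that fit *Efnb1* (1.52), *Efna4* (1.11) and *Efna2* (0.50) were higher, against 24.8% of all genes, and *Efna5* (-0.73) and *Efnb2* (-0.33) lower, against 17%, and *Efna3* (-0.40) and *Efnb3* (-0.36) were not called. The 6 ephrin calls of the upper layer kept their direction. *Efnb1* (0.60) was called higher and *Efna1* (-1.71) lower in addition, 6 and 2 of 8 against 23.9% and 20.5%. The *Efna1* value rests on 0 and 6 upper-layer transcripts under *Dnmt1* KO and 2 and 5 in the controls. Deep-layer neurons kept their 4 higher calls and gained *Efna2* (0.71), 5 of 8 against 28.8%, and had 0 lower against 21.1%, *Efnb2* being at 0.06. MGE interneurons kept *Efnb3*, *Efna5* and *Efnb2* and gained *Efna2* (0.64), 4 of 8 higher against 22.9%, with *Efna4* (-1.41) called lower, against 20.1%, and *Efnb1* (-0.32) not called.

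In the same fit *Efna1* rose in endothelial nuclei by 6.12 (SE 0.30, edgeR adjusted p = 1.51e-17), 1 of 8 ephrins against 27.7% of all genes. *Efnb3* (-2.16), *Efnb1* (-2.02), *Efna2* (-1.63) and *Efna5* (-1.16) fell there, 4 of 8 against 24%. Endothelial nuclei had 4 and 8 *Efnb1* transcripts under *Dnmt1* KO and 6 and 3 in the controls. For *Efna2* they had 0 and 4 against 1 and 3. *Efnb3* had 0 and 6 under *Dnmt1* KO and 0 in control replicate 1, so the sizes for these 3 genes are imprecise. *Efnb2* differed there by 0.21 (SE 0.14, edgeR adjusted p = 0.200); without control replicate 2 the number of ephrins called higher in endothelial nuclei was 2.

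Mural nuclei had *Efna5* called higher, by 0.82, 1 of 8 ephrins against 20.1% of all genes. *Efna3* (-2.73), *Efnb3* (-1.33) and *Efnb2* (-1.27) were called lower, 3 of 8 against 18.6%, where the median of all genes was -0.10. The *Efna3* value rests on 0 and 0 mural transcripts under *Dnmt1* KO and 1 and 0 in the controls. The *Efnb3* call was lost without either *Dnmt1* KO replicate 1 (edgeR adjusted p = 0.0743) or replicate 2 (0.429), and the *Efna3* call without *Dnmt1* KO replicate 2 (0.233) or control replicate 2 (0.0526). The mural class had summed mural markers at 4881 to 7598 CPM over the libraries, deep-layer markers at 3667 to 5245 CPM with 0 of them at 0, and striatal markers at 6156 to 7321 CPM with 2 to 4 at 0. Striatal markers exceeded mural ones in *Dnmt1* KO replicate 2 and control replicate 1, deep-layer markers did so in control replicate 1, and the part of other markers in the mural calls was not tested. In Cajal-Retzius nuclei *Efna3* (1.74) and *Efna5* (1.36) were higher, 2 of 8 against 21.3%, and *Efnb1* (-1.84) and *Efnb2* (-0.71) lower, 2 of 8 against 18.8%.

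Deep-layer nuclei were divided by their layer 5 and layer 6 markers. *Efna4* stood at 11.3, 9.85, 11.7 and 10.8 CPM in layer 5 and at 7.29, 6.26, 5.39 and 7.35 CPM in layer 6, without overlap. *Efnb3*, *Efna5* and *Efnb2* were likewise higher in layer 5 in 4 of 4 libraries, by 0.41, 0.40 and 0.23 on the log2(CPM + 1) scale, and *Efna3* and *Efnb1* were lower in 4 of 4, by -0.24 and -0.18. The exact sign-flip permutation p was 0.125 for each of these.

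Endothelial nuclei were divided, after the data were seen, by at least 1 transcript of 6 arterial markers. *Efnb2*, itself known as an arterial gene, had 443, 318, 246 and 167 CPM in nuclei with such a marker and 74.8, 121, 107 and 119 CPM in those without, higher in 4 of 4 libraries. *Efna1* was at 55.4, 19.1, 32.5 and 34.0 CPM with a marker and at 0, 13.4, 22.9 and 6.24 CPM without. The group without a marker held 8, 66, 15 and 8 nuclei, under the minimum of 20 in 3 libraries, and 0, 10, 3 and 1 *Efna1* transcripts, so its values are imprecise. The nuclei with a marker were also deeper, with medians of 11960, 12180, 13708 and 22959 transcripts against 8298.5, 9293, 9416 and 14935. The receptor *Ephb4* was at 86.8 ± 15.0 CPM with a marker and 65.1 ± 30.5 CPM without, higher in 3 of 4 libraries. Whether this split separates arterial from venous nuclei was not tested. Compared with mural nuclei, endothelial nuclei had more *Efna1* and *Efnb2* in 4 of 4 libraries (4.505 and 1.29 on the log2(CPM + 1) scale) and less *Efna5* in 4 of 4 (-2.00, exact sign-flip permutation p = 0.125 for each). Mural nuclei had 0 and 2 *Efna1* transcripts under *Dnmt1* KO and 0 and 0 in the controls. The size of 4.505 therefore depends on the 1 CPM added before the logarithm.

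MGE interneurons with at least 1 *Sst* transcript, the lineage in which Cre acts, were set against those without, again after the data were seen. Those without a counted *Sst* transcript can include nuclei of that lineage. *Efna5* was at 346, 468, 354 and 207 CPM with *Sst* and at 146, 306, 313 and 165 CPM without, higher in 4 of 4 libraries by 0.59 on the log2(CPM + 1) scale. *Dnmt1* KO replicate 1 had 15 such nuclei with *Sst*, under the minimum of 20. The nuclei with *Sst* were also deeper, with medians of 13952, 12999, 14524 and 21902 transcripts against 11325, 9596.5, 10013 and 16910. *Efna3* was at 13.8, 2.17, 3.01 and 4.96 CPM with *Sst*, from 3, 4, 2 and 3 transcripts, and at 2.83, 2.01, 1.75 and 2.54 CPM without, so that its high value was in that small library. *Efnb2* was at 306 ± 16.7 CPM with *Sst* and 303 ± 23.1 CPM without, higher in 2 of 4, a mean difference of 0.01 with an SD of 0.16 between libraries. The receptors *Epha4* and *Ephb1* were lower with *Sst* in 4 of 4, *Epha4* at 107 against 225 CPM. For *Ephb1* control replicate 1 had 210.7 against 212.3 CPM, and *Dnmt1* KO replicate 1 had 5 transcripts with *Sst*.

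Some classes reached the minimum of 20 nuclei in a part of the libraries. Fibroblast-like nuclei, 189 in *Dnmt1* KO replicate 2, had 858 CPM of *Efna5* (exact 95% Poisson interval 823 to 894, counting error only) and 248 CPM of *Efnb2* (229 to 267). Of these nuclei 72 did not also pass the excitatory gate. Choroid plexus nuclei of that library, 126 in number and 51 of them without the excitatory gate, had 246 CPM of *Efna5* (222 to 272) and 45.9 CPM of *Efnb2* (35.9 to 57.8). Striatal nuclei, 260 in control replicate 1, had 295 CPM of *Efna5* (276 to 314) and 200.1 CPM of *Efnb2* (185 to 216), and the 41 of *Dnmt1* KO replicate 2 had 185 CPM (146 to 231) and 159 CPM (123 to 202).

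**Figure D3:**
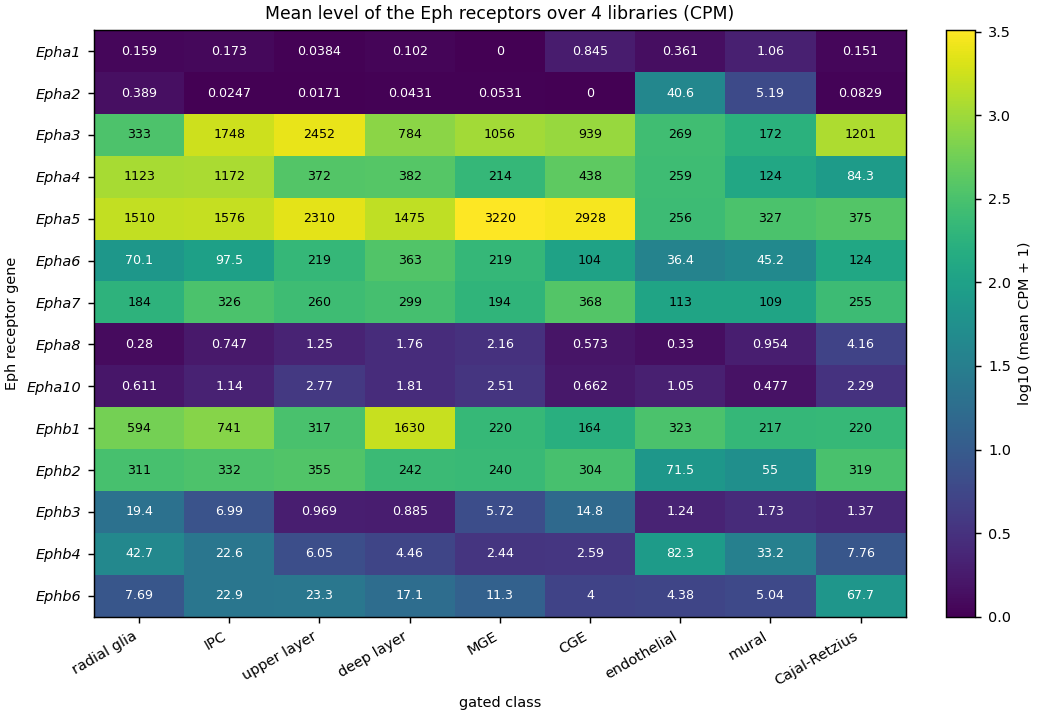
Mean CPM over the 4 libraries of the 14 Eph receptor genes (rows) in the 9 classes (columns), printed in each cell and coloured by log10 (mean CPM + 1). *Epha3*, *Epha5* and *Ephb1* had the highest values, and *Epha2* and *Ephb4* were highest in endothelial nuclei.

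The Eph receptors to which the ephrins bind were read in the same classes. The receptor with the highest CPM was *Epha5* in radial glia (1509.9 ± 158), MGE (3219.8 ± 833), CGE (2928 ± 284) and mural nuclei (327 ± 188), and *Epha3* in IPC (1748 ± 304), upper-layer (2452 ± 461) and Cajal-Retzius nuclei (1201 ± 154). It was *Ephb1* in deep-layer (1629.7 ± 345) and endothelial nuclei (323 ± 335), the latter resting on control replicate 2 with 809.6 CPM against 50.0 to 254 CPM in the others. These values are not per length, so they order classes and not receptors by abundance.

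*Epha4*, the EphA receptor that also binds B-type ephrins, was highest in progenitors, where *Efnb1* was high as well. IPC had 1172 ± 281 and radial glia 1123 ± 162 CPM, not separable from each other and both above CGE interneurons (438 ± 228 CPM) in every library. *Epha4* was called higher in radial glia (1.05, SE 0.19) and IPC (1.20, SE 0.18) and lower in MGE interneurons (-1.35, SE 0.22). *Ephb1* was called higher in deep-layer neurons (2.45, SE 0.21) and IPC (0.62, SE 0.23) and lower in MGE (-1.14) and CGE interneurons (-1.57). In the fit of 9 classes *Epha2* was called higher in endothelial (8.39, SE 0.29) and mural nuclei (5.02, SE 0.73), and *Ephb4* in endothelial nuclei (2.99), radial glia (1.81), mural nuclei (1.33) and IPC (0.86).

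Over the 14 receptors, 12 were tested in the fit of 6 classes. In radial glia *Ephb4* (2.60), *Ephb3* (2.14) and *Epha4* were higher, 3 of 12 against 37.6% of all genes. *Epha3* (-2.37), *Epha8* (-2.33), *Epha10* (-1.67), *Epha6* (-1.66), *Ephb6* (-1.17), *Epha7* (-0.92), *Epha5* (-0.86) and *Ephb2* (-0.24) were lower there, 8 of 12 against 34.3%. These calls also depended on the reference. In the fit of 9 classes *Ephb2* (0.36) was called higher in radial glia and *Epha5* (0.30) was not called. There 4 of 13 were higher against 33.7%, and 6 lower against 26.4%. In IPC *Ephb4* (1.58), *Epha4*, *Ephb6* (0.80), *Epha3* (0.73), *Ephb1* and *Ephb3* (0.47) were higher, 6 of 12 against 27.7%, and *Epha6* (-1.15) and *Epha5* (-0.69) lower, 2 of 12 against 23.9%. With 9 classes in the fit, 8 of 13 were higher in IPC against 24.8%, and 0 lower against 17%.

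Upper-layer neurons had *Epha3* (1.66), *Epha10* (1.28), *Ephb6* (1.16), *Epha6* (0.66), *Ephb2* (0.45) and *Epha5* (0.31) higher, 6 of 12 receptors against 22.7% of all genes, and *Ephb3* (-2.56) lower, against 21.1%. Deep-layer neurons had *Ephb1*, *Epha6* (1.84), *Epha8* (1.30), *Ephb6* (0.78), *Epha10* (0.72) and *Epha7* (0.46) higher, 6 of 12 against 30%, and *Ephb3* (-2.56), *Ephb4* (-0.75) and *Epha5* (-0.32) lower, 3 of 12 against 25.6%. In the fit of 9 classes *Epha5* (0.81) was instead called higher in deep-layer neurons. There 9 of 13 were higher against 28.8%, and 2 lower against 21.1%. In MGE interneurons *Epha8* (1.64), *Epha10* (1.08), *Epha5* (0.89), *Epha6* (0.69) and *Ephb3* (0.53) were higher, 5 of 12 against 22.2%, and *Ephb4* (-1.74), *Epha4*, *Ephb1*, *Epha7* (-0.40) and *Ephb2* (-0.21) lower, 5 of 12 against 21.9%. With 9 classes in the fit, *Ephb2* (0.38) was called higher in MGE, and *Epha7* (-0.008) and *Ephb1* (-0.70) were not called. There 7 of 13 were higher against 22.9%, and 2 lower against 20.1%. In CGE interneurons *Ephb3* (1.97), *Epha5* (0.67) and *Epha7* (0.64) were higher, 3 of 12 against 12.6%, and *Ephb1*, *Ephb6* (-1.54) and *Ephb4* (-1.36) lower, 3 of 12 against 12.1%.

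In the fit of 9 classes 13 receptors were tested. Endothelial and mural nuclei each had 2 higher, *Epha2* and *Ephb4*, and 8 lower, where 27.7% of all genes were higher and 24% lower in endothelial and 20.1% and 18.6% in mural nuclei. *Epha3*, *Epha4*, *Epha5*, *Epha6*, *Epha7*, *Ephb2* and *Ephb6* were lower in both, together with *Ephb3* (-2.29) in endothelial and *Ephb1* (-1.11) in mural nuclei. Cajal-Retzius nuclei had *Ephb6* (2.77), *Epha8* (2.17), *Epha10* (1.19), *Epha3* (0.94) and *Ephb2* (0.73) higher and *Epha4* (-2.12), *Epha5* (-1.80), *Ephb3* (-1.35) and *Ephb4* (-0.58) lower, 5 and 4 of 13 against 21.3% and 18.8%.

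Partners of receptors (kinases, exchange factors and the like) and of ephrins were counted in the fit of 6 classes. Of 14 receptor partners 3 were higher and 10 lower in radial glia, 4 and 6 in IPC, 8 and 3 in the upper layer, 7 and 5 in the deep layer, 8 and 2 in MGE and 5 and 2 in CGE interneurons. Of 10 ephrin partners tested 2 were higher and 6 lower in radial glia, 3 and 6 in IPC, 2 and 4 in the upper layer, 6 and 3 in the deep layer, 4 and 3 in MGE and 3 and 2 in CGE interneurons. The share of all genes called higher and lower was 37.6% and 34.3% in radial glia, 27.7% and 23.9% in IPC, 22.7% and 21.1% in the upper layer, 30% and 25.6% in the deep layer, 22.2% and 21.9% in MGE and 12.6% and 12.1% in CGE interneurons.

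The genes whose class means ran most like an ephrin's were found among 8208 genes over the 6 neural classes, as a description with 6 points that share their libraries. For *Efnb1* they were *BC002059*, *Mllt10* and *Gm47283*, with Pearson r of log2(mean CPM + 1) of 0.999, 0.999 and 0.998. For *Efnb2* they were *Tiparp* (0.95), *Zfp398* (0.94) and *Gars* (0.91), and for *Efna5* *Sulf2* (0.98), *Fam234a* (0.96) and *Smarcd3* (0.94). The other ephrins had means below 10 CPM and were not compared.

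The study asked how loss of *Dnmt1* in *Sst* interneurons acts on the cells around them, and the ephrins were compared between genotypes in 11 populations: all nuclei, *Sst*/*Gad2* nuclei (at least 1 transcript of each, 16 to 136 per library) and the 9 classes. In every population 0% of genes were called by edgeR's quasi-likelihood test, and 0 of the 59 ephrin tests were called. Unadjusted p-values under 0.05 were found for 1612 of 21516 genes over all nuclei, for 915 of 14765 in radial glia and for 900 of 13635 in IPC, and for 6 of the 59 ephrin tests. Over the 11 populations the share of genes with such a p-value ran from 1.68% in CGE to 7.49% over all nuclei. DESeq2 called 0 ephrins in any population and 205 genes over all nuclei, 54 in the deep layer, 43 in radial glia and 40 in IPC.

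More ephrin tests had *Dnmt1* KO below control than above. Both *Dnmt1* KO libraries were below both controls in 19 of 59 ephrin tests, against 20.6% of all gene tests over the 11 populations, and above both in 2 of 59, against 15.8%. Most of the tests with both *Dnmt1* KO libraries below were of *Efna2*, *Efnb2* and *Efna3*, and *Efna1* and *Efna5* were not among them. The log2 fold change was below 0 in 39 of 59. These populations share libraries, all nuclei contain the other classes, and the tests are not independent. The median log2 fold change of the ephrins tested was -0.13 over all nuclei, -0.30 in radial glia and -0.25 in IPC. That of all genes was -0.012, -0.0077 and -0.0018 there. The median was also below 0 in both layer classes, both interneuron classes and endothelial nuclei. *Sst*/*Gad2* nuclei, which include the deleted lineage, had a median of 0.42 with 3 ephrins tested. Mural nuclei had 0.098 with 2 tested and Cajal-Retzius nuclei 0.021 with 3 tested.

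*Efnb2* had its clearest separation between genotypes in the progenitor classes, where it did not pass the test. Radial glia had 197 and 176 CPM under *Dnmt1* KO, against 250.2 and 241 CPM in the controls, a log2 fold change of -0.36 (SE 0.11, edgeR adjusted p = 0.783). IPC had 144 and 160.2 against 199 and 218 CPM, a log2 fold change of -0.41 (SE 0.13, edgeR adjusted p = 0.741). The groups did not overlap in either class, and with nuclei up to 30000 transcripts the values were -0.40 and -0.39. In radial glia 4 of 8 ephrins were below both controls in both *Dnmt1* KO libraries, against 22.8% of all genes, and in IPC 4 of 7, against 23.7%.

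In the upper layer, the deep layer and both interneuron classes the *Efnb2* difference was smaller. Both *Dnmt1* KO libraries were below both controls in upper-layer neurons (log2 fold change -0.20, SE 0.16), CGE (-0.25, SE 0.19) and MGE interneurons (-0.11, SE 0.10). Of all gene tests over the 11 populations, 20.6% had both below both controls. The libraries overlapped in deep-layer neurons (-0.03, SE 0.11) and Cajal-Retzius nuclei (-0.34, SE 0.27). In *Sst*/*Gad2* nuclei, which include the deleted lineage, *Efnb2* had 334 and 284 CPM under *Dnmt1* KO, against 276 and 292 CPM in the controls, overlapping (0.17, SE 0.22, edgeR adjusted p = 1.00). That difference turned to -0.30 with the filter on mapped reads and to -0.28 with nuclei up to 30000 transcripts. *Dnmt1* KO replicate 1 had 16 such nuclei.

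In endothelial nuclei *Efnb2* ran the other way. It was at 348 and 269 CPM under *Dnmt1* KO, against 226 and 159.8 CPM in the controls, a log2 fold change of 0.63 (SE 0.25, edgeR adjusted p = 1.00), where 16.9% of all genes had both *Dnmt1* KO libraries above both controls. The summed endothelial markers were at 7117 and 5958 CPM under *Dnmt1* KO, against 6115 and 5177 CPM in the controls of this class, and the summed deep-layer markers at 563 and 1283 against 939 and 3383 CPM. Nuclei with an arterial marker were 26 of 34 and 157 of 223 in *Dnmt1* KO and 55 of 70 and 31 of 39 in control libraries. Both sums of markers overlapped between the genotypes, and the share of nuclei with an arterial marker was lower in both *Dnmt1* KO libraries. The part of these features in the *Efnb2* difference was not tested.

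Within batch 1, that is without control replicate 2, the *Efnb2* log2 fold change was -0.41 in radial glia, -0.37 in IPC and 0.44 in endothelial nuclei. In Cajal-Retzius nuclei it moved from -0.34 to -0.62, beyond the values of radial glia and IPC, and in mural nuclei from 0.07 to -0.34. The control arm then holds 1 library, so no test is given. Batch 2 held 1 library and gives no comparison of its own.

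**Figure D4:**
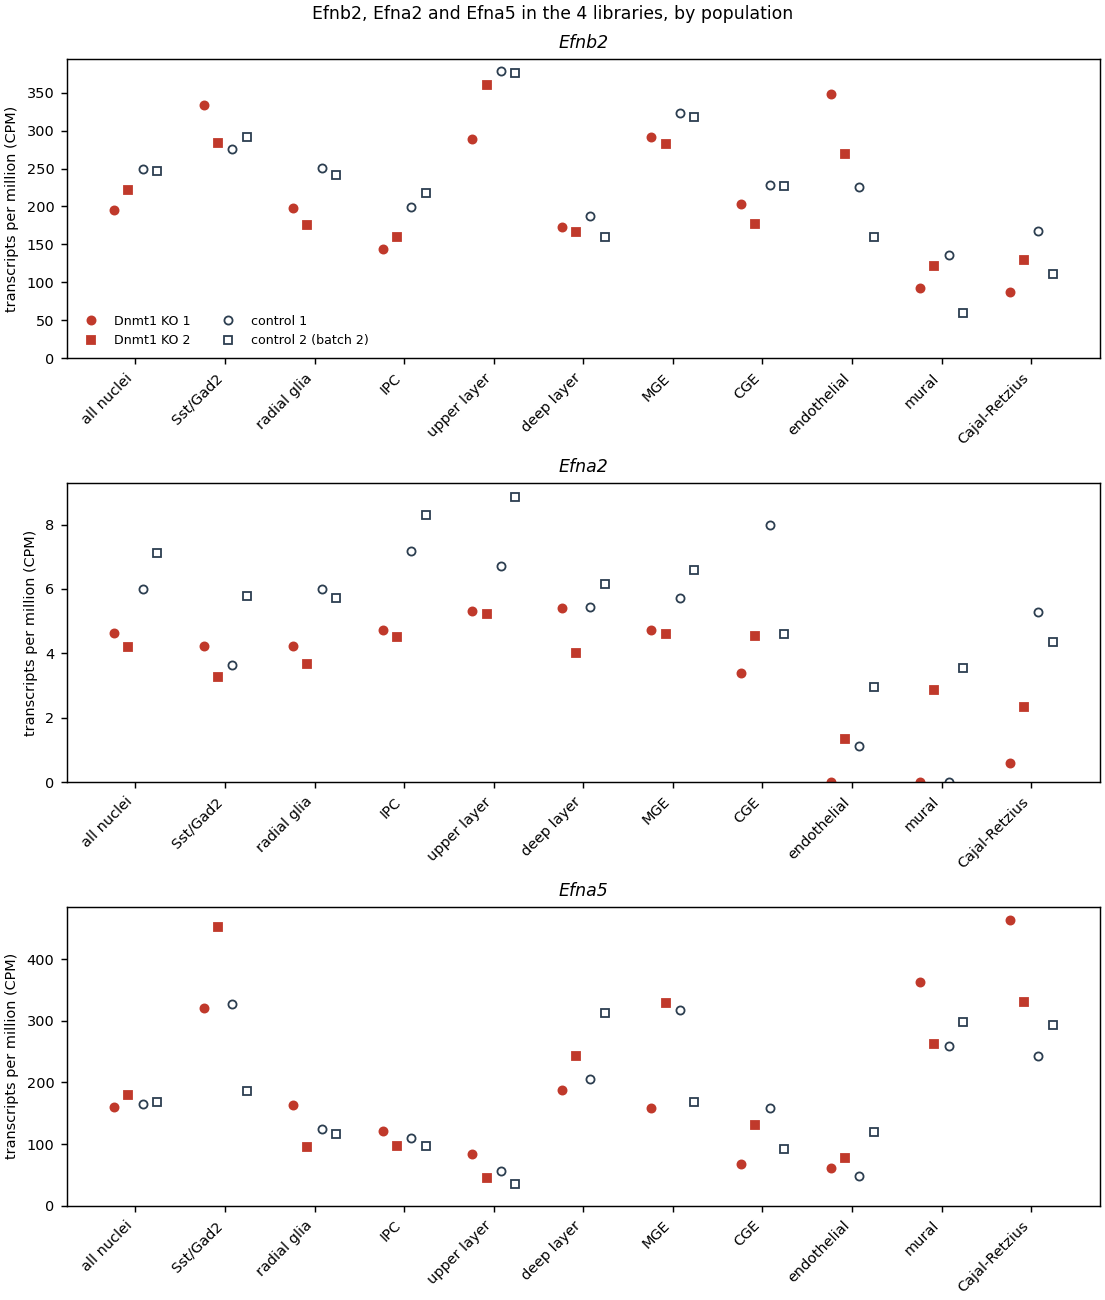
CPM of *Efnb2*, *Efna2* and *Efna5* (3 panels, linear axes from 0) in the 4 libraries for 11 populations; red filled points are *Dnmt1* KO, dark open points control, circles replicate 1 and squares replicate 2. For *Efnb2* the red points lay below the dark ones in radial glia and IPC and above them in endothelial nuclei, and for *Efna5* in MGE interneurons the genotypes were interleaved.

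*Efna2* was below both controls in both *Dnmt1* KO libraries in all 6 populations in which it was tested. These populations share their 4 libraries and all nuclei contain the other classes, so the 6 are not independent. Over the 11 populations 20.6% of all gene tests had both *Dnmt1* KO libraries below both controls. The share of genes below in all 6 was not computed. Over all nuclei *Efna2* had 4.63 and 4.21 CPM against 6.01 and 7.11 CPM, a log2 fold change of -0.59 (SE 0.17, edgeR adjusted p = 0.649). In IPC it had 4.73 and 4.52 against 7.19 and 8.29 CPM (-0.70, SE 0.24, edgeR adjusted p = 0.742). Upper-layer neurons (-0.55), radial glia (-0.53), MGE interneurons (-0.35) and deep-layer neurons (-0.30) had smaller differences. Deep-layer neurons were nearly level in *Dnmt1* KO replicate 1 and control replicate 1, at 5.41 and 5.44 CPM from 160 and 155 transcripts. Control replicate 2, the deepest library, was the highest in 5 of these 6, and within batch 1 the values ran from -0.19 in the deep layer to -0.61 in IPC.

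*Efna5* gave no common direction between genotypes. In Cajal-Retzius nuclei both *Dnmt1* KO libraries (464 and 329.5 CPM) were above both controls (243 and 292 CPM), a log2 fold change of 0.57 (SE 0.21, edgeR adjusted p = 0.778). Of all gene tests over the 11 populations, 15.8% had both above both controls. *Sst*/*Gad2* nuclei had 321 and 452 CPM under *Dnmt1* KO, against 327 and 186 CPM in the controls, overlapping (0.66, SE 0.33, edgeR adjusted p = 1.00), and the difference was 0.29 without control replicate 2. Over all nuclei the level was 159.8 and 179 against 165 and 169 CPM, a log2 fold change of 0.0049 (SE 0.11).

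**Figure D5:**
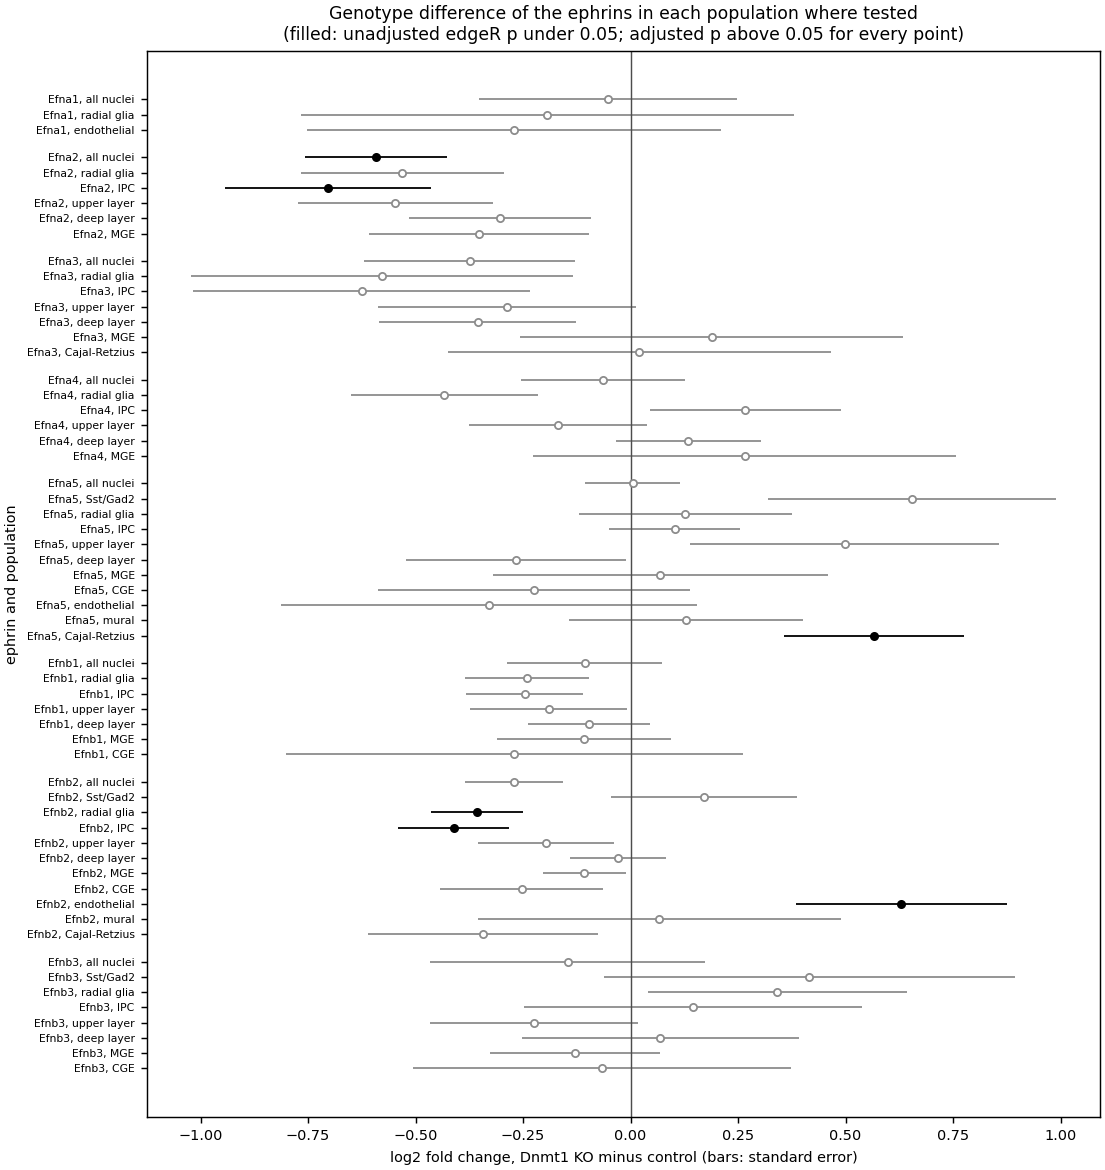
Log2 fold change (*Dnmt1* KO minus control, horizontal axis) with its standard error for each ephrin in each population where it was tested (59 points, grouped by gene); filled black points had an unadjusted edgeR p under 0.05. The 6 filled points are *Efna2* over all nuclei and in IPC, *Efna5* in Cajal-Retzius nuclei, and *Efnb2* in radial glia, IPC and endothelial nuclei, and adjusted p was above 0.05 for every point.

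The other 39 genes of the Eph/ephrin list, 14 receptors, 14 receptor partners and 11 ephrin partners, were called between genotypes in none of the 11 populations by edgeR, where 0% of all genes were called. Their number with an unadjusted edgeR p under 0.05 was 2 of 39 over all nuclei, 3 of 34 in radial glia and 1 of 35 in IPC. *Ephb1* was among them in the progenitor classes, at 798 and 665 against 509 and 402 CPM in radial glia (log2 fold change 0.72, SE 0.17, edgeR adjusted p = 0.783) and at 1049 and 768 against 551 and 594 CPM in IPC (0.71, SE 0.18, edgeR adjusted p = 0.741). In deep-layer neurons, its highest class, *Ephb1* ran the other way, at 1235 and 1507 CPM under *Dnmt1* KO against 1728 and 2049 in the controls. *Epha4* overlapped between genotypes in radial glia (0.05, SE 0.18) and IPC (0.34, SE 0.23). It was lower in both *Dnmt1* KO libraries in *Sst*/*Gad2* nuclei (148 and 94.0 against 179 and 175 CPM, -0.56, SE 0.28, edgeR adjusted p = 1.00). Of the 16 such nuclei in *Dnmt1* KO replicate 1, the 15 MGE interneurons had 41.5 CPM from 9 transcripts, so its 148 CPM rests largely on 1 unassigned nucleus. Of all gene tests over the 11 populations, 20.6% had both *Dnmt1* KO libraries below both controls and 15.8% above.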

How the data were processed

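The snRNA-seq libraries were made with the Parse Evercode kit, in which fixed nuclei collect barcodes over successive rounds of wells. The authors processed the reads with Trailmaker on GRCm39 and deposited raw, unnormalized counts in which each transcript of a gene is tallied once by its molecular identifier, with replicates kept apart. How intronic and antisense reads were counted, and the versions of that software, are not given in the sources used here. The submitters' processing notes name R 4.4.1 and Seurat 5.0.1.9001 for later steps.

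From these counts, 29656 nuclei were kept, each with between 1500 and 60000 transcripts and a mitochondrial share no higher than 10%. Nuclei were gated on distinct marker genes, a nucleus that passed more than 1 gate was left out, which was also the treatment of doublets, except that nuclei of the endothelial, mural, Cajal-Retzius, fibroblast and choroid plexus gates were kept where they also passed the excitatory gate, and classes needed 20 nuclei in every library. Transcripts were summed per library and class and given as CPM of that sum. Genotypes were compared in each population with edgeR 4.0.16 (R 4.3.3; quasi-likelihood test on the summed counts, TMM scaling, filterByExpr, genotype as the term, Benjamini-Hochberg adjustment over all genes tested). Classes were compared with the library as a block, each against the mean of the others. A pair of populations was compared within each library by a two-sided exact sign-flip permutation test on the 4 differences of log2(CPM + 1), and Poisson intervals are exact at 95%. The fits were tested on simulated counts.

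The members and gene lists were chosen with earlier results of these data known. All 8 ephrins were named in every population; receptors and partners were named where the adjusted p was under 0.05, together with *Epha4*, *Ephb1* and the receptor with the highest CPM in each class. For the class comparisons the rule was not followed in full. Receptors were named as called in the fit of 6 classes and in the 3 further classes of the fit of 9. Some calls of the other classes in the latter fit were added, and partners were given as counts. The endothelial, mural and Cajal-Retzius classes, the splits of endothelial and MGE nuclei and the test of the difference between classes were added after the data were seen. Alternatives were DESeq2 1.42.0, other size factors, no count filter, each library left out, the replicate number as a block, stricter and thinned gates, a filter on mapped reads, and nuclei up to 30000 transcripts. The replicate numbers coincided with sex and were not used as a pairing in the main fits. In each of 8 populations the differences between replicates 1 and 2 were correlated between genotypes over genes. These correlations ran from -0.145 to 0.0725. With 2 libraries a genotype they do not settle whether same-numbered libraries are paired. Promoter sequences are RefSeq's, on GRCm38.p6, and gene positions are those of GENCODE vM39 on GRCm39; no coordinate was converted.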

Additional observations from a re-analysis of the deposited data

Results flagged for a closer look

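*Efnb2* had opposite genotype differences in different classes. Both *Dnmt1* KO libraries were below both controls in radial glia (log2 fold change -0.36), IPC (-0.41), upper-layer neurons (-0.20), MGE (-0.11) and CGE interneurons (-0.25), and both were above both controls in endothelial nuclei (0.63). Of all gene tests over the 11 populations, 20.6% had both below and 15.8% both above. None of these *Efnb2* differences passed edgeR's test in its own class. The difference itself was tested between endothelial nuclei and radial glia in 1 edgeR fit of 9 classes, chosen after the data were seen: the *Dnmt1* KO effect on *Efnb2* was 1.00 higher on the log2 scale in endothelial nuclei (SE 0.32, edgeR adjusted p = 0.749). In that fit *Efnb2* was among 847 of 16059 genes with an unadjusted p under 0.05 and 0 were called in endothelial nuclei, and the effect on *Efnb2* in the other classes differed from radial glia by -0.07 in IPC, 0.14 in the upper layer, 0.31 in the deep layer, 0.24 in MGE and 0.06 in CGE interneurons, 0.49 in mural and 0.03 in Cajal-Retzius nuclei. The classes share their 4 libraries, and whether the effect in endothelial nuclei differed from that in classes other than radial glia was not tested.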

How the results depend on the processing

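No ephrin was called between genotypes under any of the alternatives run. Among *Efna2*, *Efna5* and *Efnb2*, whose adjusted p was kept for each alternative, the lowest was 0.0612, for *Efnb2* in IPC without *Dnmt1* KO replicate 2 (range over its alternatives 0.0612 to 1.00). With the replicate block 0 ephrins, 0 receptors or partners and 0 genes were called in any population, and the crossed pairing, added because 1 of 8 populations had a correlation under -0.1, called 0 in the 8 populations it was run in, which left out endothelial, mural and Cajal-Retzius nuclei. A genotype left with 1 library was assumed to vary like the other genotype, an assumption that tests without a library rest on. Over all genes the count of calls was 43 to 569 per population with no low-count filter (93 to 236 in endothelial, mural and Cajal-Retzius nuclei), 0 to 205 with DESeq2, 0 to 188 without *Dnmt1* KO replicate 1, 0 to 557 without replicate 2, 0 to 69 without control replicate 1 and 0 to 154 without control replicate 2, against 0. With no filter the receptors and partners called between genotypes numbered 1 in radial glia (*Ephb1*), beside 149 of 27951 genes. IPC had 4 (*Epha6*, *Ephb1*, *Grip2*, *Vav3*), beside 412 of 26593 genes. The deep layer had 4 (*Epha4*, *Epha6*, *Ephb1*, *Ntrk2*), beside 569 of 32115. MGE had 1 (*Epha6*), beside 159 of 26375, and endothelial nuclei had 2 (*Epha6*, *Ephb1*), beside 191 of 20813. Of the receptors and partners DESeq2 called 1, *Epha6* in the deep layer, beside 54 of 16848 genes. Leaving out 1 library gave 0 to 1 in *Sst*/*Gad2* nuclei (*Ephb1*) and radial glia (*Ntrk2*), both without *Dnmt1* KO replicate 2, 0 to 6 in IPC (same library; *Epha4*, *Ephb1*, *Ephb2*, *Grip2*, *Ntrk2*, *Vav3*), 0 to 1 in CGE (*Rgs3*, without control replicate 2) and 0 to 2 in mural nuclei (*Epha7* without control replicate 1, *Chn2* and *Ephb1* without replicate 2).

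*Efnb2* in *Sst*/*Gad2* nuclei turned to -0.30 with the filter on mapped reads and -0.28 with nuclei up to 30000 transcripts. Leaving out 1 library moved *Efnb2* from -0.13 to 0.069 in the deep layer and from -0.34 to 0.83 in mural nuclei, and *Efna5* from -0.082 to 0.10 over all nuclei, -0.29 to 0.45 in radial glia, -0.067 to 0.24 in IPC, -0.56 to 0.086 in the deep layer, -0.54 to 0.59 in MGE, -0.87 to 0.18 in CGE, -0.83 to 0.53 in endothelial and -0.094 to 0.37 in mural nuclei. The number of ephrins higher in radial glia was 2 with no filter and 1 to 2 when 1 library was left out (2 without control replicate 1), and that lower in the upper layer was 2 with the strict gate, 2 with the thinned gate and 1 to 2 (2 without *Dnmt1* KO replicate 1). The ranges were 2 to 4 lower in IPC (2 without *Dnmt1* KO replicate 2) and, with the first value without control replicate 2, 3 to 5 higher in the upper layer, 1 to 2 lower in the deep layer and 1 to 3 lower in CGE; in endothelial nuclei it was 1 to 2 higher, 2 without control replicate 2. The cause was not tested. With 2 libraries a genotype and 21 to 39 mural or endothelial nuclei in some libraries, depth and replication limit the small classes.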
